A study of Mus musculus with 2 samples.

Results

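The endocannabinoid system of the adult mouse cerebellum is described here through 9 genes, out of 43346 annotated genes measured. They were chosen by role and matched by Ensembl gene identifier. They are the receptor genes Cnr1 and Cnr2, the diacylglycerol lipase genes Dagla and Daglb, the 2-AG hydrolase genes Mgll, Abhd6 and Abhd12, and Napepld and Faah, which make and break down anandamide. All 9 were found in the tables of both libraries.

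RNA was taken from the cerebellum of C57BL/6J mice, the common inbred laboratory strain, at 8 weeks of age, with no treatment or mutation given. Both libraries are labelled as tissue pooled from male and female littermates and as biological replicates. They share 1 donor record, so separate animals are not stated and the spread between the libraries cannot be read as that between animals. They form 1 group, so no comparison of conditions exists and no p-values are given. Library 1 held 83109117 estimated fragments and library 2 held 84279927, of which 79771873 and 80281011 fell in mouse genes. Xist, the RNA that coats the inactive X chromosome of females, had 45928 estimated fragments in library 1 and 26 in library 2. The low value goes against the shared sex label of library 2. Sex makeup therefore cannot be told apart from replicate here. Granule and Purkinje neuron markers were at 1 TPM or more in both libraries for 8 of 8 and 7 of 7 genes, led by Zic1 at 778 ± 95.2 TPM and Pcp2 at 1467 ± 167 TPM, with Barhl1 lowest at 7.97 ± 0.00707 TPM and Ppp1r17 lowest at 94.4 ± 7.63 TPM (SD, n = 2). TPM is a length-corrected share of all transcripts. Of 6 forebrain neuron markers 3 reached 1 TPM in both libraries, and the list ran from Drd1 at 0.205 ± 0.0212 TPM to Nrgn at 36.2 ± 7.97 TPM.

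Endocannabinoids are lipid messengers that travel backwards across a synapse. In Purkinje neurons, calcium and glutamate receptors that act through Gq drive phospholipase C and diacylglycerol lipase, which make 2-arachidonoylglycerol (2-AG) in the dendrite. 2-AG then acts on CB1, a Gi/o-coupled receptor on parallel fibre, climbing fibre and interneuron terminals, where it lowers transmitter release until hydrolases remove it.

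The sequences of 3 promoter stretches, 1 coding exon and 4 splice joins bear on the transcript results below. The first set shows the letters just before annotated starts of Cnr1 and Mgll, since reads over first introns separate their alternative starts. The sequences come from the RefSeq promoter table for GRCm38.p6, run 5′ to 3′ on the plus strand, and leave out bases that lie in an annotated GENCODE M21 exon of the gene. Capitals mark the GC box GGGCGG or its reverse complement CCGCCC.
Cnr1, before the RefSeq start that lies farthest upstream, chr4:33924014-33924263: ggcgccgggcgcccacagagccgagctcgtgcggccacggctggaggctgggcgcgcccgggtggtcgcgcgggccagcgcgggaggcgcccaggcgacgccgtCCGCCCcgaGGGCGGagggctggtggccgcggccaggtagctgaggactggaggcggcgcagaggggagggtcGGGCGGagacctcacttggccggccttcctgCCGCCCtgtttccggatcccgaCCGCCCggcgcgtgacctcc
Cnr1, before the start of Cnr1-202, chr4:33926130-33926201: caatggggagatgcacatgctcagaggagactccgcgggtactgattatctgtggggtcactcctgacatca
Mgll, before the start of Mgll-204, chr6:88724162-88724411: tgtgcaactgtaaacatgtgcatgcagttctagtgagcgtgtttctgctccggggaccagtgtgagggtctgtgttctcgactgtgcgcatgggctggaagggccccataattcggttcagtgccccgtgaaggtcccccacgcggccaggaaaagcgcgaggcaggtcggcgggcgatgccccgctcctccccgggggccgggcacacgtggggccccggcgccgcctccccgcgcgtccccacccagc

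The upstream Cnr1 stretch held 5 GC boxes and 36 CpG dinucleotides, with 79.2% G or C. Across 32851 RefSeq windows of the same 250 bases, 32.7% held a GC box on either strand, the median number of CpG was 6 and the median G or C content was 52.4%. The 72 bases before Cnr1-202 held 2 CpG and no GC box, and 54.2% of them were G or C. The full window of 250 bases there, which runs into the exon, held 5 CpG and no GC box, with 49.2% G or C. The upstream stretch precedes a RefSeq start that is 329 bases from that of Cnr1-203, and is not the window next to Cnr1-201. The window whose start lies 12 bases from that of Cnr1-201 held no GC box and 28 CpG, with 68.8% G or C. The Mgll-204 window held 23 CpG and no GC box, with 68.0% G or C, and the window before Mgll-207 held 40 CpG and 1 GC box, with 74.8%. The table lists 12 windows for 7 of the 9 genes, without Dagla and Abhd12, and none of the 12 held the TATA box letters TATAAA or the full cyclic AMP response element TGACGTCA on either strand, against 12.4% and 1.55% of all windows. These are matches of letters and say nothing of bound factors.

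Of the 9 genes, 8 reached 1 TPM in both libraries, against 33.4% of all genes and 60.9% of protein-coding genes. Levels by mean ran in the order Abhd12, Cnr1, Mgll, Faah, Abhd6, Dagla, Daglb, Napepld and Cnr2. The libraries of neighbours overlapped for Mgll with Faah and for Abhd6 with Dagla, so these pairs did not differ beyond their spread. Faah and Abhd6 were 1.08-fold apart with no overlap, the smallest step among the neighbours that stood apart. That step turned round over protein-coding transcripts only, where Faah was at 16.6 ± 1.94 TPM and Abhd6 at 36.8 ± 0.495 TPM, and Faah came after Daglb in the order. Since these are bulk tissue libraries, few cells with much RNA and many cells with little cannot be told apart.

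**Figure D1:**
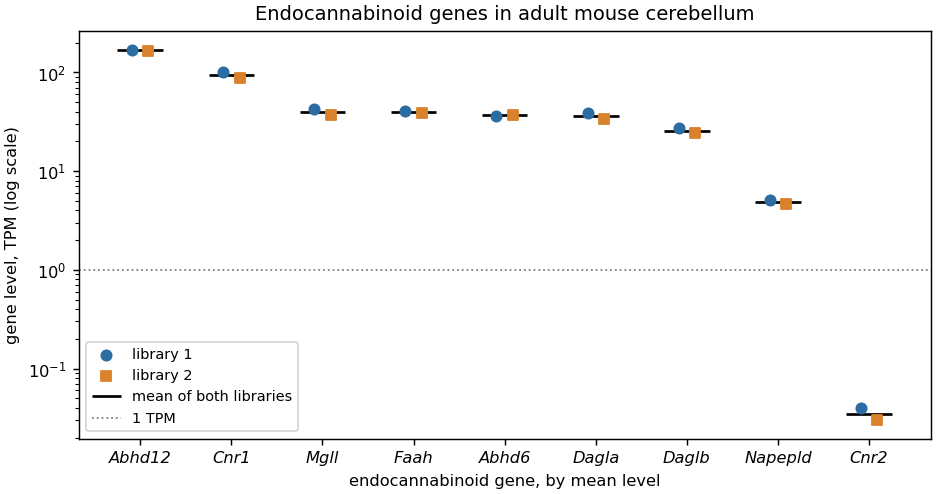
Gene level in TPM on a log axis for the 9 endocannabinoid genes, ordered by mean. Circles are library 1, squares library 2, bars the mean of both, and the dotted line is 1 TPM. Abhd12 leads at 168 TPM, Cnr2 is the only one of the 9 below 1 TPM, and 5 genes lie close together between 25.6 and 39.9 TPM.

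The receptors were at opposite ends. Cnr1, which encodes the CB1 receptor of nerve terminals, was at 101.4 TPM in library 1 and 87.0 TPM in library 2, or 94.2 ± 10.2 TPM (SD, n = 2), from 29869 and 26925 estimated fragments. That level was above 93.4% of protein-coding genes. Cnr2, which encodes CB2, the receptor known from immune cells, was at 0.04 TPM in library 1 and 0.03 TPM in library 2.

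Each library gave Cnr2 7 fragments, or 0.0878 (95% exact Poisson interval 0.0353 to 0.181) and 0.0872 (0.0351 to 0.180) CPM over gene fragments (counts per unit of depth). Per effective length, Cnr1 stood 2729-fold above Cnr2 in library 1 (1325 to 6788) and 2550-fold above it in library 2 (1238 to 6344), where the intervals cover the counting error of Cnr2 alone. In the mm9 junction table no read crossed either annotated Cnr2 intron and 1 read crossed an unannotated junction, and so few reads cannot show whether the message was spliced. The transcript estimate gave all 7 fragments to Cnr2-201 in library 1 and all 7 to Cnr2-202 in library 2, and no isoform can be named from so few.

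Immune cells are known to carry Cnr2. Of 9 microglia markers, 9 were at 1 TPM or more in both libraries, from 1.99 ± 0.905 TPM for Aif1 to 28.5 ± 1.61 TPM for C1qb, with a median of 6.15 TPM. The microglia list summed to 95.7 TPM in library 1 and 105 TPM in library 2. Of 6 lymphocyte markers none reached 1 TPM, with Ptprc highest at 0.755 ± 0.120 TPM and Cd8a lowest at 0.015 ± 0.00707 TPM.

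In the mm10 estimate, Cnr1 was made mostly from its upstream first exon. Its coding sequence of 1419 bases lies in the last exon, so the first exon changes only the noncoding leader. Cnr1-201, which starts at chr4:33924632, took 80.3% of the gene TPM in library 1 and 78.3% in library 2. Cnr1-202, which starts at chr4:33926202, took 19.0% and 20.4%.

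Reads that join these first exons to the coding exon gave a lower figure in the mm9 junction table. The table numbers its replicates 1 and 2 without naming libraries, so these numbers are not paired with the libraries. Cnr1-201 had 526 reads (313 and 213 by replicate number) and Cnr1-202 had 185 (105 and 80), so the upstream exon took 74.0% of 711 reads (95% Wilson interval 70.6 to 77.1%). The mm10 shares of Cnr1-201 within this pair, 80.8% and 79.3%, lay above that interval. All intervals given cover counting error only, since reads from PCR are not independent molecules. The mm9 transcript RPKM values, which scale reads by transcript length and depth, gave Cnr1-201 57.4% and 47.3% of the same pair. The junction reads and the mm10 values put the upstream exon first, while the mm9 values of the replicates fell on either side of an even split.

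Further donors that the authors' table calls unannotated also led into the Cnr1 coding exon, whose acceptor lies at mm9 chr4:34030527. Of 822 reads into it, 111 (13.5%, 11.3 to 16.0%) came from 12 unannotated donors. By replicate number the share was 15.7% and 10.1%. At 10 reads or more there were 4 such donors, with 20, 29, 31 and 12 reads. By replicate number these were 17 and 3, 20 and 9, 21 and 10, and 7 and 5. The donors with 20 and 29 reads lie 1299 and 608 bases before the annotated Ensembl 65 start, and those with 31 and 12 reads lie 13544 and 16916 bases after it, inside the first intron. A contig of continuous coverage began at mm9 chr4:34011016, upstream of the annotated start at 34011568. It did not reach the donors with 20 and 29 reads, which lie farther upstream. The contig ran to 34036915, which is 1109 bases past the annotated 3′ end, with no other Ensembl 65 gene of either strand in that stretch. The last exon of Cnr1 also held a gap of 34 bases, at mm9 chr4:34033947-34033980, crossed by 35 reads (20 and 15).

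**Figure D2:**
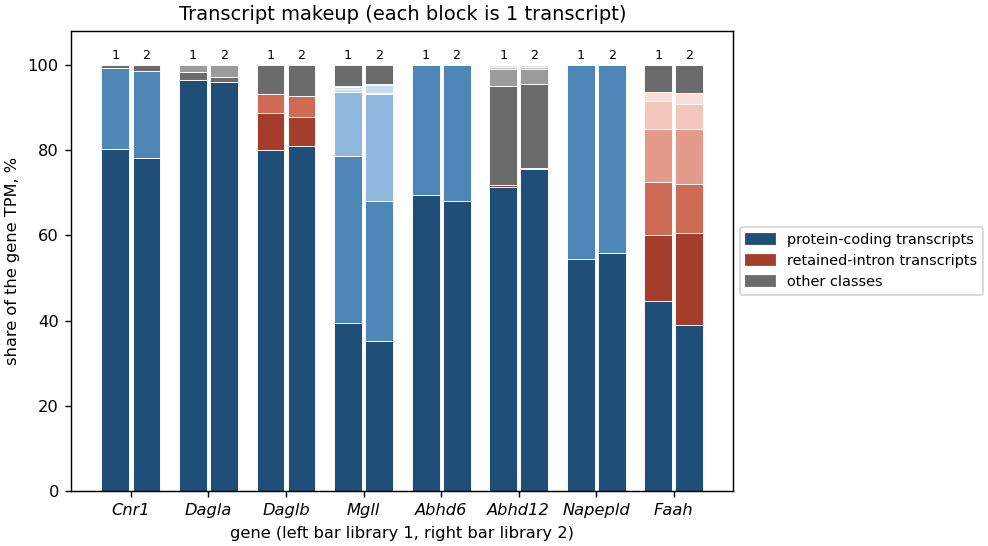
Share of the gene TPM, in percent, held by each annotated transcript of the 8 genes at or above 1 TPM, with library 1 as the left bar and library 2 as the right bar. Blue blocks are protein-coding transcripts, red blocks retained-intron transcripts and grey blocks other classes. Dagla is almost a single block, Mgll is split over 3 coding transcripts, and Faah has more red than blue.

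For 2-AG synthesis, Dagla was above Daglb. Dagla, the main diacylglycerol lipase of adult brain synapses, was at 39.0 TPM in library 1 and 33.8 TPM in library 2 (36.4 ± 3.65 TPM). Daglb, a related lipase known for its part in microglia and macrophages, was at 27.1 and 24.1 TPM (25.6 ± 2.09 TPM). The lower Dagla library was above the higher Daglb library, and Dagla was 1.44-fold and 1.40-fold higher.

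Daglb shares 2309 bases with Rac1, a gene of the opposite strand at 243 TPM. The libraries are strand-specific per the labels, and how counting used the strand is not given in the sources used here. Counted over protein-coding transcripts only, the means were 35.1 TPM for Dagla and 20.6 TPM for Daglb. A Daglb transcript of 2806 bases, at 1.81 TPM in library 1 and 1.74 TPM in library 2, is absent from GENCODE M21. It therefore has no class and was left out of that count. Beyond the Daglb 3′ end, coverage went on for 6848 bases, in a stretch where the opposite strand holds Rac1.

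The 2 lipase genes differed in how single their message was. Dagla-201 took 96.6% of the Dagla TPM in library 1 and 96.1% in library 2. Daglb-201 took 80.1% and 81.1% of the Daglb TPM, with 13.2% and 11.7% in 2 retained-intron transcripts. The larger of these by TPM, Daglb-202, is 622 bases long and held 1.36% and 1.02% of the expected counts. By expected counts Dagla-201 held 98.2% and 97.2%, and Daglb-201 88.7% and 88.3%. The contrast was smaller in mm9 RPKM, with 87.6% and 91.7% for Dagla-201 and 80.3% and 82.8% for Daglb-201 by replicate number. Annotated junctions held 98.4% of 10477 reads in Dagla and 97.9% of 6312 in Daglb, against 95.2% of the reads over all junctions of the series.

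The most read unannotated junction that skips an exon in these 9 genes was in Daglb. It leaves out exon 3 of 15 of Daglb-201, 172 coding bases at chr5:143472947-143473118 on the plus strand (GRCm38, GENCODE M21). The exon is printed because the skip removes all of it, and below it the join with the exon and the join without it, with capitals for the 12 bases after the join.
Daglb exon 3: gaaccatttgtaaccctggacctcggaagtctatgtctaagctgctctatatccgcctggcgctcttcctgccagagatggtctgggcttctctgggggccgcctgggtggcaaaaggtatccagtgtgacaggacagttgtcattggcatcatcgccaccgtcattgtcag
Daglb exon 2 to exon 3: tcagcatgagagGAACCATTTGTA
Daglb exon 2 to exon 4: tcagcatgagagCTGGATTGTCAT

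The skip had 59 reads (25 and 34 by replicate number), against 379 and 317 reads over the introns before and after the exon. With the mean of those as inclusion, the skip was 14.5% (95% Wilson interval 11.4 to 18.2%), or 11.8% and 17.4% by replicate number. The second of these introns is also carried by the Daglb transcript absent from GENCODE M21. That transcript starts at this exon in Ensembl 65, so it cannot show the skip. A length of 172 bases is not a multiple of 3. Dagla had a rarer skip of exon 11 of 20, which is 84 bases and a multiple of 3, with 10 reads, all from replicate number 2 (1.84%, 1.00 to 3.36%). Other unannotated junctions with 10 reads or more in the 2 genes were 1 in Daglb with 15 reads (7 and 8) and 1 in Dagla with 12 reads (9 and 3).

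For 2-AG breakdown, Abhd12 was far above the other hydrolase genes. Abhd12, whose membrane-bound product cleaves 2-AG and lysophosphatidylserine, was at 170 TPM in library 1 and 167 TPM in library 2 (168 ± 2.22 TPM), above 96.9% of protein-coding genes. Mgll encodes monoacylglycerol lipase, the enzyme that removes most 2-AG in brain, and was at 42.4 and 37.4 TPM (39.9 ± 3.52 TPM). Abhd6, which encodes a postsynaptic 2-AG hydrolase, was at 36.4 and 37.1 TPM (36.8 ± 0.495 TPM).

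In the sum of the 3 hydrolase genes, Abhd12 took 68.3% of the TPM in library 1 and 69.1% in library 2. Mgll took 17.0% and 15.5%, and Abhd6 14.6% and 15.4%. Mgll was 1.16-fold and 1.01-fold above Abhd6. The libraries of these genes did not overlap, but the mean log2 ratio of 0.114 was smaller than its SD of 0.147. The Mgll level was 0.249 and 0.224 of that of Abhd12. These are RNA levels, which do not measure enzyme activity.

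Part of the Abhd12 level rests on a transcript estimate that the splice reads do not match. Abhd12-201, the coding form, took 71.5% of the TPM in library 1 and 75.5% in library 2. Abhd12-207, a shorter form with no coding sequence annotated, took 23.3% and 19.7%. It starts in an intron of Abhd12-201 and has an intron of 219 bases of its own, which ends at the same exon of 46 bases as an Abhd12-201 intron of 1099 bases. The 2 joins into that exon, chr2:150842246-150842291 on the minus strand, are shown because they tell the forms apart, with capitals for its first 12 bases.
Abhd12-207 join: tcatcctgacagGTGCTGAGTTCC
Abhd12-201 join: gagctgtacaagGTGCTGAGTTCC

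Of 4925 reads that spliced into this exon by these 2 introns, all came by the Abhd12-201 intron, and 0 by the Abhd12-207 intron (upper Wilson bound 0.0779%). Set against that, the transcripts with the Abhd12-207 intron took 23.5% and 19.9% of the mm10 TPM of all transcripts that carry either intron, and 54.2% and 46.5% of the mm9 RPKM. The cause of the mismatch was not tested. On protein-coding transcripts alone, Abhd12 was at 124 ± 3.18 TPM and still the highest of the 9 genes.

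**Figure D3:**
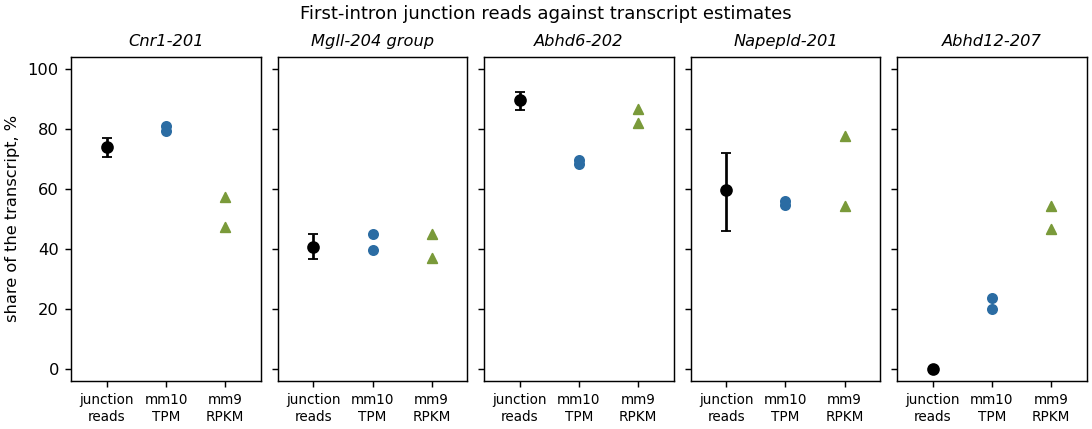
Share in percent of 1 transcript, or for Mgll of all transcripts with its first intron, from junction reads (black, with 95% Wilson interval), mm10 TPM in both libraries (blue) and mm9 RPKM by replicate number (green). Each share is out of the transcripts that carry either of the compared introns. Junction reads for Abhd12-207 are at 0, while its TPM shares are near 20% and its RPKM shares near 50%.

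Junction reads also varied along Abhd12. Introns 1 to 4 of Abhd12-201 had 1415 to 2300 reads, introns 5 and 6 had 4925 and 4444, and introns 7 to 12 had 2173 to 3548. Both replicate numbers showed the same steps, with 2336 and 2589 reads at intron 5, against 1164 and 1136 at intron 4. Skipping of the 46-base exon had 19 reads (0.404%, 0.259 to 0.630%). Coverage went on for 8856 bases past the annotated 3′ end, over a stretch where the opposite strand holds Pygb.

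**Figure D4:**
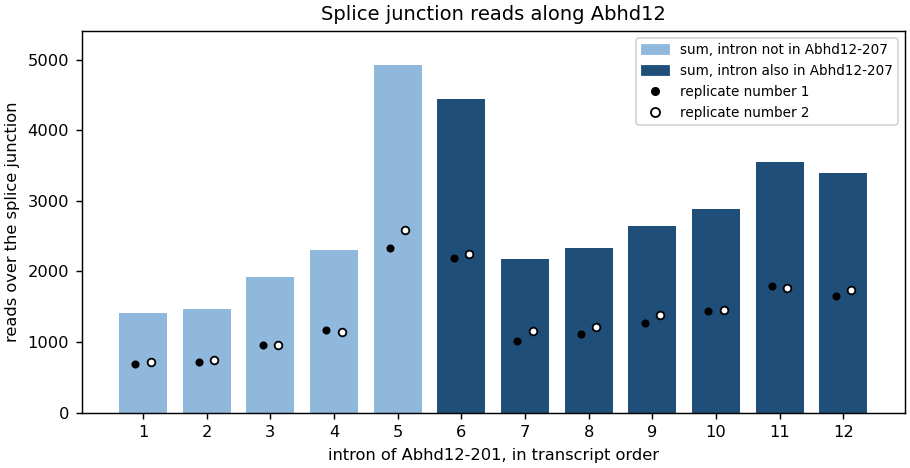
Reads over each splice junction of Abhd12-201 in transcript order in the mm9 table, as bars for the sum and points for replicate numbers 1 and 2. Light bars are introns that Abhd12-207 lacks and dark bars introns it shares. Introns 5 and 6 stand above all others, at 4925 and 4444 reads.

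Mgll was spread over 3 coding transcripts. Mgll-207 took 39.4% of the TPM in library 1 and 35.2% in library 2, Mgll-204 took 39.3% and 33.0%, and Mgll-201 took 15.0% and 25.1%. The first introns fall in 2 groups by donor. The donor of Mgll-204, in the exon that begins right after the Mgll stretch printed above, had 210 reads (130 and 80). The donor shared by Mgll-201, Mgll-205 and Mgll-207 had 305 (152 and 153).

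The Mgll-204 donor therefore took 40.8% of 515 reads (36.6 to 45.1%), or 46.1% and 34.3% by replicate number, against 45.0% and 39.5% of the mm10 TPM and 45.0% and 36.9% of the mm9 RPKM. Of 60 junctions in the gene, no unannotated one reached 10 reads. Coverage ran 466 bases past the annotated 3′ end.

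For Abhd6 the junction reads and the mm10 estimate differed. Abhd6-202 took 69.5% of the TPM in library 1 and 68.2% in library 2, and Abhd6-201 the other 30.5% and 31.8%. Of 396 reads over their first introns, 355 (89.6%, 86.3 to 92.3%) were from Abhd6-202 and 41 from Abhd6-201. By replicate number the Abhd6-202 share was 89.8% and 89.4%. The mm9 RPKM gave it 82.0% and 86.7% of the pair, so the mm10 TPM was the lowest of the 3 readouts. Another 38 reads (24 and 14) ran from the first exon of Abhd6-202 past exon 2. With the mean of 355 and 769 reads over the flanking introns as inclusion, the skip was 6.33% (4.65 to 8.57%). The second of these introns is shared with Abhd6-201. The skip removes 153 bases, of which 119 are coding in Abhd6-202. GENCODE M21 lists a coding form, Abhd6-203, with the same first exon end and 8 exons instead of 9. Its 867 coding bases start after exon 2 of Abhd6-202, and it was not among the transcripts quantified. Coverage extended 8691 bases beyond the annotated 3′ end of Abhd6, where Ensembl 65 has no gene on either strand.

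For anandamide, the breakdown gene was well above the synthesis gene. Faah, which encodes fatty acid amide hydrolase, was at 40.5 TPM in library 1 and 39.2 TPM in library 2 (39.8 ± 0.969 TPM). Napepld, which encodes the phospholipase D that releases anandamide and other N-acylethanolamines, was at 5.05 and 4.67 TPM (4.86 ± 0.269 TPM). Faah was 8.02-fold and 8.38-fold above Napepld. Napepld was above 50.2% of protein-coding genes, and Faah above 83.1%.

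Much of the Faah level was assigned by the transcript estimate to transcripts annotated as keeping introns. The coding form Faah-201 took 44.5% of the TPM in library 1 and 39.0% in library 2. The 5 retained-intron transcripts together took 49.3% and 54.4%, with Faah-203 at 15.6% and 21.7%, Faah-206 at 12.5% and 13.1%, and Faah-208 at 12.6% and 11.3%. Some of these are short, and by expected counts Faah-201 held 61.9% and 58.2%. Over coding transcripts only, Faah was at 16.6 ± 1.94 TPM, which is 3.42-fold above Napepld.

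Spliced reads were present along the whole coding form of Faah, with 253 to 894 reads at each of 14 annotated junctions with 10 reads or more. No read crossed the 2 introns that Faah-202 alone holds, while its other introns, shared with further Faah transcripts, did have reads. An unannotated junction had 16 reads (9 and 7). Coverage went on for 2480 bases past the 3′ end of Faah-201.

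Napepld had 259 junction reads in all, the fewest of the 8 genes above 1 TPM. Napepld-201 took 54.5% of the TPM in library 1 and 56.0% in library 2, and Napepld-202 the rest. Their first introns had 31 and 21 reads, or 59.6% (46.1 to 71.8%) for Napepld-201. With so few reads the interval takes in an even split.

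Other genes of the pathway were set beside these 9. Of 39 further genes in 7 role groups, 29 reached 1 TPM in both libraries, and their median was 22.9 TPM, against 4.77 TPM for all protein-coding genes and 36.8 TPM for the 9 genes. The list was picked for its ties to neurons of the cerebellum, among other reasons, so the count describes the list and singles out nothing.

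Genes known to drive 2-AG release in Purkinje neurons were at 1 TPM or more in both libraries for 7 of 7, against 60.9% of protein-coding genes. Bulk tissue RNA does not show which cells held them. Homer3, a scaffold of metabotropic glutamate receptors, was highest at 189 ± 31.4 TPM, and the phospholipase C gene Plcb4 was at 115 ± 14.2 TPM. Homer1 was lowest at 9.61 ± 0.113 TPM.

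Genes known to act with or below CB1 were also present in the tissue, again without showing in which cells. Of 6 genes for G protein subunits and CB1-binding proteins, 6 reached 1 TPM, led by Gnao1 at 218 ± 14.1 TPM, Gnai2 at 186 ± 7.51 TPM and Gnai1 at 70.2 ± 3.45 TPM, with Gnai3 lowest at 17.1 ± 1.20 TPM. All 4 release effectors reached it. The adenylyl cyclase gene Adcy1 was at 189 ± 35.7 TPM, the P/Q-type calcium channel gene Cacna1a at 154 ± 21.9 TPM, the active zone gene Rims1 at 62.4 ± 5.83 TPM and the N-type channel gene Cacna1b at 22.2 ± 1.94 TPM.

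By contrast, 1 of 6 genes for other receptors of these lipids reached 1 TPM. It was Pparg, a nuclear receptor gene, at 1.57 ± 0.205 TPM. Ppara, its relative, was at 0.815 ± 0.205 TPM, the channel gene Trpv1 at 0.160 ± 0.0707 TPM, and Gpr119 lowest at 0.015 ± 0.0212 TPM, from 0 and 3 fragments.

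Genes for other routes to N-acylethanolamines reached 1 TPM in 8 of 10 cases. Gde1, a glycerophosphodiesterase of a route that does not use Napepld, was at 219 ± 1.30 TPM, above every one of the 9 genes. The acyltransferase gene Plaat3 was at 34.6 ± 2.06 TPM and the hydrolase gene Abhd4 at 34.0 ± 0.926 TPM, while Plaat5 was lowest at 0.08 ± 0.0849 TPM. In the group of other breakdown and oxidation genes 1 of 4 reached 1 TPM. That was Naaa, an acid amidase for N-acylethanolamines, at 22.5 ± 3.05 TPM, followed by Ptgs2 at 0.305 ± 0.0636 TPM and Ces1d at 0.05 ± 0.0707 TPM, and Ces1g had no fragment in either library, where a count of 0 allows up to 3. Both carriers of these lipids were high, Fabp5 at 111 ± 10.1 TPM and Fabp7 at 77.0 ± 8.24 TPM.

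**Figure D5:**
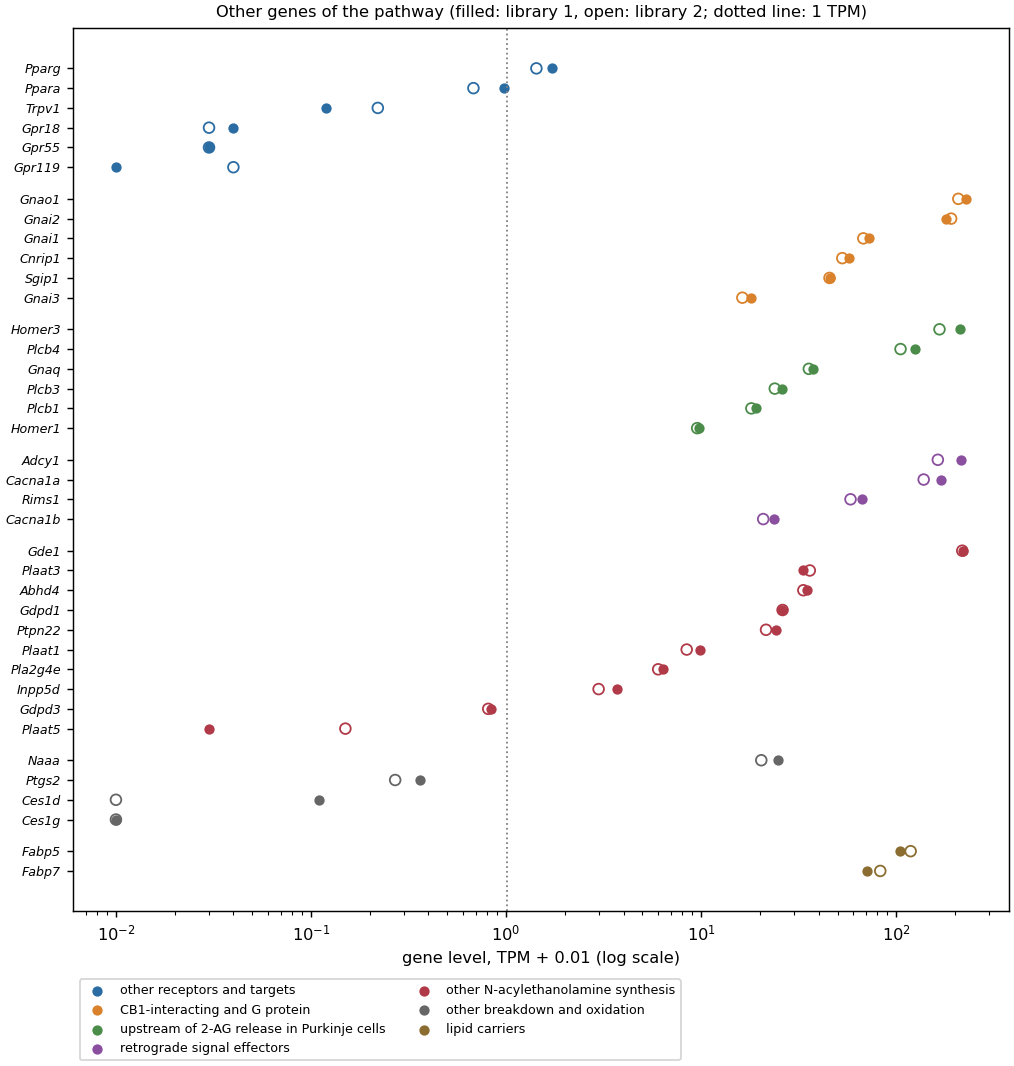
Level of further pathway genes, as TPM + 0.01 on a log axis, in library 1 (filled) and library 2 (open), coloured by role and ordered by mean within it. The dotted line is at 1 TPM. The Purkinje, G protein and release groups lie wholly to its right, and the group of other receptors reaches it with Pparg alone.

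Between the libraries, none of the 8 members with 100 fragments or more in a library was 2-fold apart after TMM scaling, where 0.553% of the 14460 genes tested were. The difference of library 1 minus library 2, on the log2 scale, was largest for Cnr1, at 0.16, which is 1.12-fold. Dagla followed at 0.13 and Mgll at 0.11. Abhd6 at -0.09 and Abhd12 at -0.06 were higher in library 2 on this scale. With TPM + 1 in place of scaled counts Abhd6 was still lower in library 1, at -0.03, while the sign of Abhd12 turned to 0.03.

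Cell type markers moved between the libraries as well. Of the Purkinje markers 7 of 7 and of the granule markers 7 of 8 had a higher TPM in library 1, with sums of 3457 and 2894 TPM in library 1 and 2984 and 2354 TPM in library 2. Oligodendrocyte markers were higher in library 1 for 0 of 6 genes, with sums of 2942 TPM in library 1 and 3482 TPM in library 2. Opalin was the lowest of them at 26.1 ± 2.67 TPM. Choroid plexus markers summed to 2127 TPM in library 1 and 780 TPM in library 2, from Prlr at 1.30 ± 0.608 TPM to Ttr at 1425 ± 935 TPM. Astrocyte and Bergmann glia markers were higher in library 1 for 6 of 6 genes, from Aldh1l1 at 34.2 ± 3.66 TPM to Slc1a3 at 263 ± 38.2 TPM. Interneuron markers had a higher TPM there for 5 of 6, from Sorcs3 at 6.28 ± 0.537 TPM to Pvalb at 654 ± 17.5 TPM. On the TMM scale, a comparison added after seeing the data, the genes higher in library 1 numbered 8 of 8 for granule, 7 of 7 for Purkinje, 5 of 6 for astrocyte and Bergmann glia, 3 of 6 for interneuron and 0 of 6 for oligodendrocyte markers. The part of these markers in the differences of the 9 genes was not tested. Nor was that of sex makeup, since Xist differed between the libraries as well.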

How the data were processed

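RNA sequencing of 2 cerebellum libraries was analysed from deposited tables. Per the file headers and library indexes, the authors quantified each library on mm10 with GENCODE M4 and deposited expected counts, TPM over all entries (spike-ins included), and each transcript's percent of its gene's TPM. On mm9 they deposited RPKM for Ensembl 65 features. They also deposited junction read counts, an irreproducibility fraction per junction, and a contig coverage signal. No source used here names the aligner or versions. The mm9 exon RPKM equals the sum over its transcripts, within 0.1% or the rounding of the file, for 158 of 158 exons, so exons add no readout. The builds were linked by identifier only, since mm9 replicate numbers name no library.

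Names and coordinates came from GENCODE M21 (42462 of 43346 genes matched). Expected counts were rounded for ratios: edgeR 4.0.16 in R 4.3.3, TMM, prior count 2, minimum 100 counts in a library. This step was tested on simulated data. Junctions were taken within a gene and 2000 bases before its start. Intervals are 95%. The text names all 9 members, transcripts at 10% or more of a gene's TPM, unannotated junctions at 10 reads or more, and the 3 highest and the lowest gene of each pathway group, and the highest and lowest of each marker list. A few list genes are not reported here by name, though counts include them. Members and lists were chosen with earlier results of these data known. Alternatives are in the closing section.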

Additional observations from a re-analysis of the deposited data

How the results depend on the processing

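The order of the 9 genes was the same with posterior mean TPM and with TPM over nuclear genes only, and 7 of 9 genes kept their place with either library left out. With mm9 Ensembl 65 RPKM 5 of 9 did, and likewise 5 of 9 over protein-coding transcripts only, a setting chosen after seeing the data, where Faah came seventh. On the log2 scale, Dagla over Daglb was 0.51, against 0.68 with mm9 RPKM and 0.76 with protein-coding transcripts only, and 0.49 to 0.53 with 1 library left out. Mgll over Abhd6 was 0.11, against 0.27 with mm9 RPKM, and 0.01 to 0.22 with 1 library left out. Mgll over Abhd12 was -2.08, against -1.95 with mm9 RPKM and -1.70 with coding transcripts only, and -2.16 to -2.00 with 1 library left out. Faah over Napepld was 3.04, against 3.09 with mm9 RPKM and 1.77 with coding transcripts only, and 3.00 to 3.07 with 1 library left out. Cnr1 over Cnr2, from the deposited TPM in which Cnr2 is rounded to 0.04 and 0.03, was 11.40, against 11.02 with posterior mean TPM, and 11.31 to 11.50 with 1 library left out; the folds per effective length given above rest on counts and put library 1 higher, where this ratio puts library 2 higher. None of these 5 ratios reversed. The median share of the leading transcript was 71.2%, against 78.6% by expected counts. The share of junction reads that are annotated was 98.5%, against 99.5% at an irreproducibility of at most 0.1 and 99.6% at 10 reads or more. Over all junctions of the series it was 95.2%. Cnr1, at 78.1%, and Napepld, at 91.1%, lay below that share, as did Cnr2 with its 1 read. Pathway genes at 1 TPM numbered 29, against 31 at 0.5 TPM and 27 at 5 TPM. No member was 2-fold apart under any scaling, prior count or filter tried. TPM over nuclear genes only raised levels 1.34-fold in library 1 and 1.40-fold in library 2. No paired analysis was possible because there is only 1 group. Depth limits Cnr2, at 7 fragments a library, and the Napepld first exons, at 52 junction reads.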
